A study of Mus musculus with 9 samples.

Results

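The data described here cover 37 genes of receptors that tie cells to the extracellular matrix or to each other, namely integrins, syndecans, glypicans and discoidin receptors, in the ventricles of mice given adrenergic agonists. Members were chosen by name alone, as the numbered or lettered Itga, Itgb, Sdc and Gpc genes together with Ddr1 and Ddr2. The 37 members are part of 15149 genes with a transcript in both deposited tables, and the RefSeq annotation holds 38 such genes. The remaining one, Gpc5, was not analysed here. The members are 26 integrin subunits, of which 7 are typical of leukocytes and were described apart, 4 syndecans, 5 glypicans and 2 discoidin receptors. Counts, medians, patterns and shares over all members, and the shares within the alpha and beta families, count the leukocyte integrins with the others.

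Integrins are pairs of an alpha and a beta subunit that cross the plasma membrane. The outer part binds collagen, fibronectin, laminin or counter-receptors on other cells, and the inner part is linked to actin through talin, kindlin and other adaptors. The alpha subunit largely sets the ligand. Syndecans span the membrane and glypicans are held by a lipid anchor, and both carry heparan sulfate chains that bind growth factors and matrix proteins. Discoidin receptors are tyrosine kinases that respond to collagen. In heart muscle, integrins with the beta1 subunit sit at costameres, where they join the contractile apparatus to the surrounding matrix.

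Bulk RNA of whole right and left ventricles was sequenced from 9 wild-type C57Bl6N mice, with 3 hearts per group. In the ISO/PE group (1 female and 2 males), an osmotic minipump released isoprenaline, which acts on beta-adrenoceptors, and phenylephrine, which acts on alpha1-adrenoceptors, each dosed at 30 mg/kg per day over 96 h. In the ISO group (again 1 female and 2 males), pumps held isoprenaline alone, for the same time and at the same dose. Ctr hearts (2 females and 1 male) came from untreated mice at the start. Drug, surgery and the 4 d cannot be told apart in either comparison with Ctr, and both of those comparisons use the same 3 Ctr hearts. The labels give an age of 2 to 3 months, and the study's methods give an older range. Each heart had 10172248 to 14477054 counts over all genes, and the members took 0.347% to 0.395% of them in ISO/PE hearts, 0.299% to 0.309% in ISO hearts and 0.235% to 0.246% in Ctr hearts.

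The tissue label was checked against 10 cardiomyocyte markers, which were detected in every heart and summed to 35262 to 50492 CPM (counts scaled to a common library size) in ISO/PE hearts, 56175 to 63307 CPM in ISO hearts and 71116 to 78646 CPM in Ctr hearts. Other cell markers moved with treatment as well. By the calls defined below, 6 of the 10 cardiomyocyte markers were lower in ISO/PE vs. Ctr and 2 in ISO vs. Ctr. The shares of all genes called lower were 10.1% and 2.99%. In both comparisons 0 of these markers were called higher. In bulk RNA, fewer cells of a type, less RNA per cell and a change of the marker genes themselves cannot be told apart. Within their groups, 3 hearts stood apart. The ISO/PE heart female2 had the lowest sum of the cardiomyocyte markers of its group (35262 CPM, against 50492 and 45206 CPM) and the highest sums of 9 activated fibroblast markers (6462 CPM, against 5165 and 5020 CPM) and of 5 neutrophil markers (27.7 CPM, against 14.1 and 16.5 CPM). The ISO heart female2 had the lowest sum of 10 macrophage and monocyte markers of its group (1283 CPM, against 2044 and 2131 CPM) and the lowest sum of the activated fibroblast markers (1483 CPM, against 2541 and 3106 CPM). The Ctr heart female2 had the lowest sum of the platelet markers in the tables (45.7 CPM, against 99.9 and 126 CPM in the other Ctr hearts). Calls of members that were lost without any of these hearts are named below. Counts of cell markers are given with all hearts only.

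A gene was called higher or lower where edgeR's quasi-likelihood test gave an adjusted p (Benjamini-Hochberg over 14426 genes) under 0.05 with a log2 fold change beyond 0.6 in either direction. All 37 members passed the filter on low counts, so no member was left out of the tests. In ISO/PE vs. Ctr, 19 members were called higher and 3 lower, whereas 16.0% of all genes tested were called higher and 10.1% lower. In ISO vs. Ctr, 11 members were called higher (10.4% of all genes), and 0 lower (2.99% of all genes). Of the members, 2 had an unadjusted p under 0.05 in the lower direction in ISO vs. Ctr, DESeq2 called 1 of them lower and limma-voom called 0. In ISO/PE vs. ISO, where the groups differ by design in phenylephrine, 5 members were called higher (3.64% of all genes) and 3 lower (2.81% of all genes). The median log2 fold change of the members was 0.60 in ISO/PE vs. Ctr, 0.32 in ISO vs. Ctr and 0.10 in ISO/PE vs. ISO. The median of all genes was -0.01 in both comparisons with Ctr and closer to 0 in ISO/PE vs. ISO. Without the leukocyte integrins, 14 of 30 members were called higher and 2 lower in ISO/PE vs. Ctr (median 0.35). In ISO vs. Ctr 8 of these 30 were higher and 0 lower (median 0.32). In ISO/PE vs. ISO 4 were higher and 2 lower (median 0.03).

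The scale of the libraries changed the lower calls. When libraries were scaled to cardiomyocyte markers, which shifted the median of all genes by 0.81 on the log2 scale in ISO/PE vs. Ctr, 0.32 in ISO vs. Ctr and 0.49 in ISO/PE vs. ISO, 29 members were called higher and 0 lower in ISO/PE vs. Ctr, 18 higher and 0 lower in ISO vs. Ctr, and 18 higher and 0 lower in ISO/PE vs. ISO. Under this scaling 65.3% of all genes were called higher and 1.25% lower in ISO/PE vs. Ctr, 20.0% and 0.936% in ISO vs. Ctr, and 31.5% and 0.652% in ISO/PE vs. ISO. Of the called members, Itgal in ISO/PE vs. Ctr turned in sign, to 0.20, which is below the shifted median. The ISO heart female2 also carried weight in ISO/PE vs. ISO. Without it, 2 members were called higher (Itga5 and Sdc1) and 0 lower, beside 1.92% and 1.38% of all genes. Without the ISO/PE heart female2, 3 members were called higher and 1 lower in that comparison, beside 2.20% and 1.52% of all genes. Leaving out that heart also gave 14 members higher and 2 lower in ISO/PE vs. Ctr, beside 14.4% and 8.69% of all genes, and the calls of Gpc4, Gpc6, Itgae, Itgb3, Itgb8 and Itga2b were lost.

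**Figure D1:**
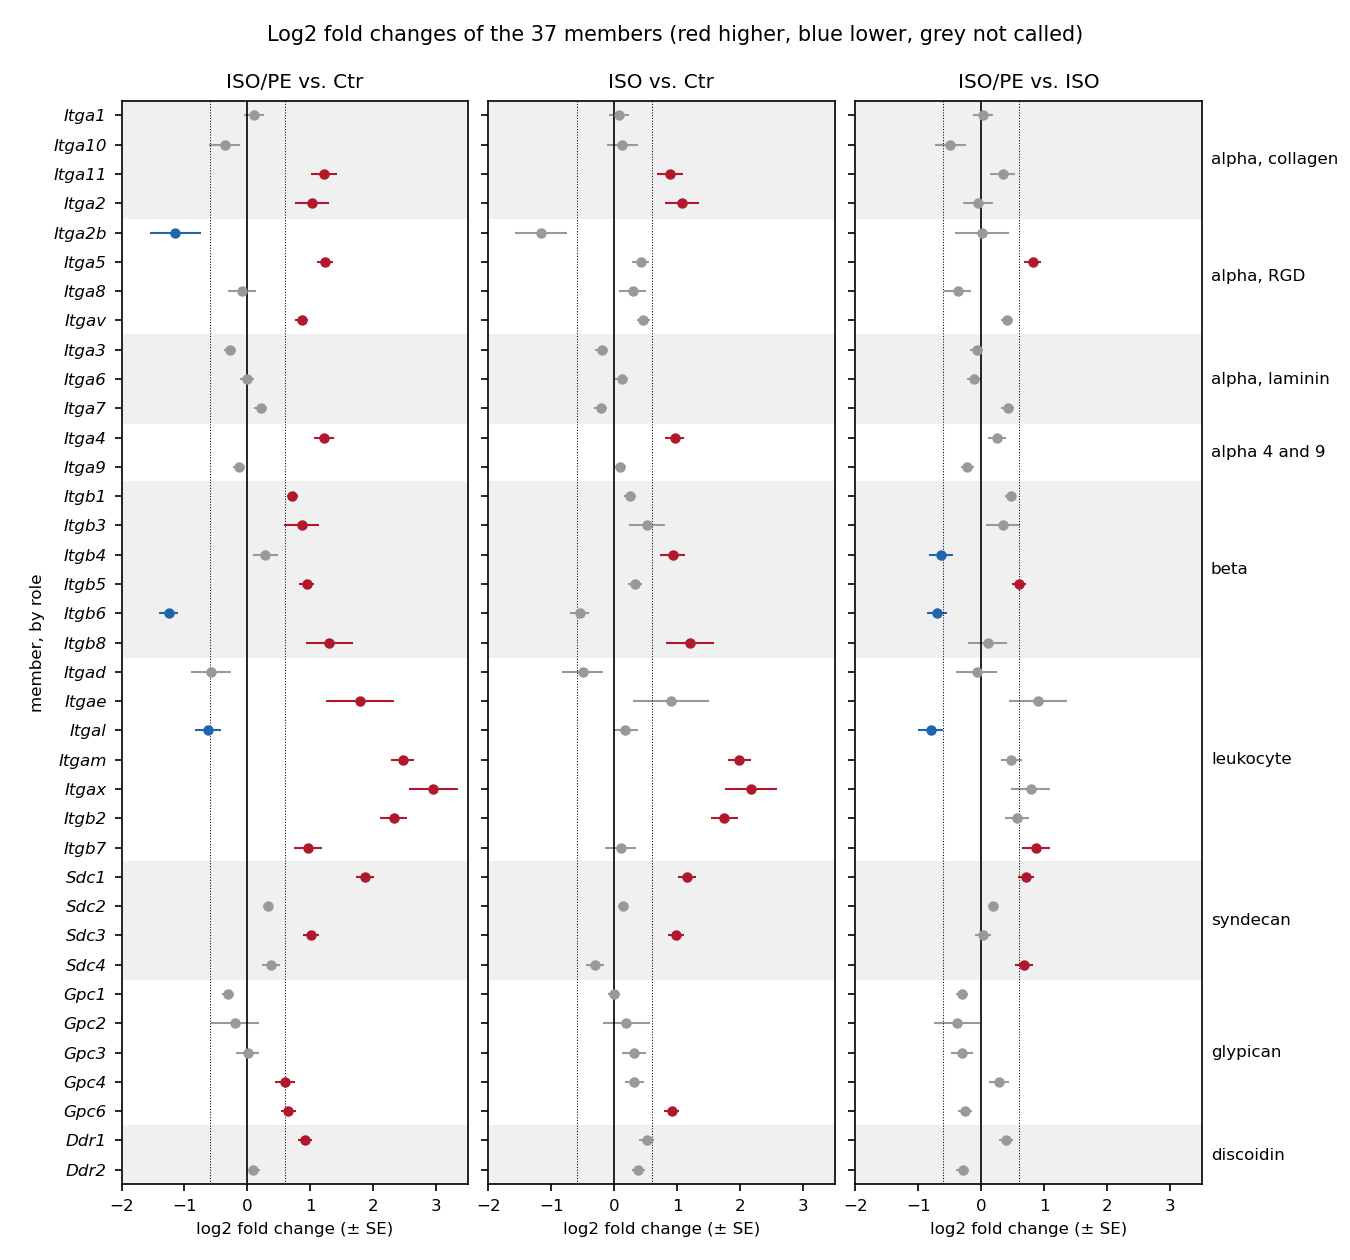
Log2 fold change with its standard error (x axis) of each of the 37 members (rows, grouped by role) in the 3 comparisons named above the panels, with dotted lines at the fold threshold of 0.6 in either direction. Red points were called higher (19, 11 and 5 members), blue points lower (3, 0 and 3 members) and grey points were not called.

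The 4 members outside the leukocyte integrins that were called higher in ISO/PE vs. ISO, past both thresholds, were Itga5, Itgb5, Sdc1 and Sdc4, and their promoters are shown because these genes moved together in that comparison. The windows run from 250 bases before to 50 bases after the gene start on the gene's own strand (RefSeq, GRCm38.p6). Capitals mark matches, on either strand, to the letters GAGGAA (PU.1 core) and GGGGCGG (GC box). The windows lie at chr15:103366742-103367041 (Itga5, minus strand), chr16:33829415-33829714 (Itgb5, plus strand), chr12:8771146-8771445 (Sdc1, plus strand) and chr2:164443139-164443438 (Sdc4, minus strand).
Itga5: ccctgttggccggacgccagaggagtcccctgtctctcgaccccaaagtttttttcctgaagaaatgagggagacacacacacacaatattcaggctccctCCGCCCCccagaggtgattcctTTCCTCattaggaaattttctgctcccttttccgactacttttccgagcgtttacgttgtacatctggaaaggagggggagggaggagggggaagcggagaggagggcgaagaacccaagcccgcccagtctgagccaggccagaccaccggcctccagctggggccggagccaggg
Itgb5: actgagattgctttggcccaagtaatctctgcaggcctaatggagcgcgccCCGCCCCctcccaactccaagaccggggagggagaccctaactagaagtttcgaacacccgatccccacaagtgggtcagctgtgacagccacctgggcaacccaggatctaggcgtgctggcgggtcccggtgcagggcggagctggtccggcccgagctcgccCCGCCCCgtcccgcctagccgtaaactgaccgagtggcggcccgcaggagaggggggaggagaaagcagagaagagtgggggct
Sdc1: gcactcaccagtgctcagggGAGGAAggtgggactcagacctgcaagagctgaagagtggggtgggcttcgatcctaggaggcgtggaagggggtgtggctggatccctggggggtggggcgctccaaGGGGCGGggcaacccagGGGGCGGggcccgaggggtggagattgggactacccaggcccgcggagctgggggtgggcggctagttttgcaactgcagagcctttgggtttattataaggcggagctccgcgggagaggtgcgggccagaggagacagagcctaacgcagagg
Sdc4: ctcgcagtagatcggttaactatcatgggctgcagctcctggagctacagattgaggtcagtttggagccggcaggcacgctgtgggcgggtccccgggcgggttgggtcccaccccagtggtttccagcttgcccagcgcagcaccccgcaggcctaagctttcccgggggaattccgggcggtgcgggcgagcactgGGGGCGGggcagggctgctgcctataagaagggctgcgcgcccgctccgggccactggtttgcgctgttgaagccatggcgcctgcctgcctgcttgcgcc
Each of these 4 windows held at least 1 GC box match, as did 23.2% of all 32851 promoter windows and 41.9% of the 31 windows found for 26 members. The letters TGANTCA (AP-1) and GGAATG (TEAD) had no match in these 4 windows, and stood in 7.81% and 14.7% of all windows. No match was found in them for CCGGAAG (ETS), GTCTAGAC (Smad) or the CArG box, which stood in 8.86%, 0.213% and 1.63% of all windows. Matches in the printed windows did not overlap each other.

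Of the alpha subunits that bind the RGD sequence in matrix proteins, Itga5 and Itgav rose in ISO/PE hearts and Itga2b fell. Itga5, the alpha5 chain of the classical fibronectin receptor, had 217, 198 and 272 CPM in ISO/PE hearts, 110.0, 142 and 139 CPM in ISO hearts and 98.9, 103 and 90.7 CPM in Ctr hearts. Each ISO/PE heart lay above each ISO heart, and each ISO heart above each Ctr heart. The log2 fold change was 0.82 ± 0.13 (SE, adjusted p = 0.00431) in ISO/PE vs. ISO, and it was 1.23 ± 0.13 in ISO/PE vs. Ctr (adjusted p = 2.69e-05). In ISO vs. Ctr it was 0.42 ± 0.13 (adjusted p = 0.0379), below the fold threshold. Per length, Itga5 stood at 52.3 ± 8.83 RPKM in ISO/PE hearts, 29.7 ± 4.02 RPKM in ISO hearts and 22.3 ± 1.41 RPKM in Ctr hearts (SD, n = 3 each), which made it the RGD-binding alpha subunit with the highest level in all 3 groups.

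Itgav, the alphaV chain that pairs with several beta subunits and takes part in the activation of latent TGF-beta, had 68.5, 60.9 and 69.2 CPM in ISO/PE hearts, 50.9, 49.4 and 49.5 CPM in ISO hearts and 42.1, 34.5 and 32.4 CPM in Ctr hearts. The groups did not overlap. Its log2 fold change was 0.86 ± 0.10 in ISO/PE vs. Ctr (adjusted p = 4.75e-05). Against ISO hearts it was 0.41 ± 0.10 in ISO/PE hearts (adjusted p = 0.0212), and in ISO vs. Ctr it was 0.46 ± 0.10 (adjusted p = 0.00705), both below the fold threshold. Itga8, known from smooth muscle and mesenchymal cells, was not called in any comparison, with log2 fold changes of -0.08 in ISO/PE vs. Ctr, 0.29 in ISO vs. Ctr and -0.37 in ISO/PE vs. ISO. Its kept transcript is a non-coding one.

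Itga2b, the alphaIIb chain of the fibrinogen receptor of platelets, had 4.58, 4.61 and 3.60 CPM in ISO/PE hearts, 3.26, 4.73 and 4.68 CPM in ISO hearts and 12.6, 3.00 and 12.8 CPM in Ctr hearts. The Ctr heart female2 lay below each of the ISO/PE hearts, so the groups overlapped. The call in ISO/PE vs. Ctr (log2 fold change -1.15 ± 0.41, adjusted p = 0.0371) was lost without any one of the Ctr hearts female1 or male1 or of the 3 ISO/PE hearts (adjusted p 0.0683 to 0.145). Without the Ctr heart female2 it was -1.59 (adjusted p = 0.000252). In ISO vs. Ctr the log2 fold change was -1.17 (adjusted p = 0.0599), not called by edgeR with all hearts, and it was called by DESeq2 (-1.18, adjusted p = 0.0188) and by edgeR without the Ctr heart female2 (-1.61, adjusted p = 0.00111). Platelet markers summed to 102 to 122 CPM in ISO/PE hearts and 75.5 to 120 CPM in ISO hearts. In Ctr hearts they summed to 45.7 to 126 CPM, so the sums overlapped. Of 6 platelet markers tested, 4 fell in ISO/PE vs. Ctr, and Pf4, which macrophages also express, rose, beside 10.1% of all genes lower and 16.0% higher. In ISO vs. Ctr 2 of them fell and 1 rose, beside 2.99% of all genes lower and 10.4% higher. The part of blood cells left in the tissue was not tested.

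The beta subunits that pair with alphaV did not move as one. Itgb5 had 321, 237 and 266 CPM in ISO/PE hearts, 169, 187 and 185 CPM in ISO hearts and 150.2, 147 and 132 CPM in Ctr hearts. The 3 groups did not overlap. The log2 fold change of 0.61 ± 0.11 in ISO/PE vs. ISO (adjusted p = 0.00708) was close to the fold threshold, and without the heart female2 of either the ISO/PE or the ISO group it was 0.48 to 0.56. It was 0.94 ± 0.11 in ISO/PE vs. Ctr (adjusted p = 5.62e-05), and in ISO vs. Ctr 0.33 ± 0.11 (adjusted p = 0.0497), under the fold threshold.

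Itgb6, a beta subunit of epithelial cells that with alphaV activates latent TGF-beta, went the other way. It had 6.91, 6.35 and 8.82 CPM in ISO/PE hearts, 12.6, 11.7 and 11.5 CPM in ISO hearts and 20.1, 17.3 and 15.1 CPM in Ctr hearts. Each ISO/PE heart lay below each ISO heart, and each ISO heart below each Ctr heart. The log2 fold change was -1.25 ± 0.15 in ISO/PE vs. Ctr (adjusted p = 7.02e-05) and -0.70 ± 0.16 in ISO/PE vs. ISO (adjusted p = 0.0151). In ISO vs. Ctr it was -0.55 ± 0.15 (adjusted p = 0.0201), under the fold threshold, and -0.64 without the Ctr heart male1 (adjusted p = 0.0181). The call in ISO/PE vs. ISO was lost without the heart female2 of either group (adjusted p 0.0568 to 0.0591).

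Itgb3, which pairs with alphaV and with alphaIIb, had 15.3, 14.4 and 14.7 CPM in ISO/PE hearts, 9.40, 11.4 and 14.3 CPM in ISO hearts and 10.8, 3.94 and 9.79 CPM in Ctr hearts. It was called higher in ISO/PE vs. Ctr (log2 fold change 0.86 ± 0.28, adjusted p = 0.025). The lowest value was again in the Ctr heart female2, where Itga2b was lowest too, and without that heart, or without the ISO/PE heart female2, the call was lost (log2 fold change 0.52, adjusted p = 0.0402 without the Ctr heart, and 0.84, adjusted p = 0.064 without the ISO/PE heart). Itgb8, another partner of alphaV, was scarce, with 1.48, 1.06 and 1.03 CPM in ISO/PE hearts, 1.21, 0.930 and 1.19 CPM in ISO hearts and 0.655, 0.469 and 0.306 CPM in Ctr hearts. These values rest on 14 to 23 counts per ISO/PE heart, 11 to 16 per ISO heart and 3 to 7 per Ctr heart. It was called higher in ISO/PE vs. Ctr (1.30 ± 0.37, adjusted p = 0.0136) and in ISO vs. Ctr (1.20 ± 0.38, adjusted p = 0.0395). The call in ISO/PE vs. Ctr was lost without the Ctr heart male1 or the ISO/PE heart female2 (adjusted p 0.0551 to 0.0568), and the call in ISO vs. Ctr without any of 6 hearts, namely each ISO heart, the Ctr hearts female2 and male1 and the ISO/PE heart male1 (adjusted p 0.0525 to 0.13).

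Itgb1, the common partner of most matrix-binding alpha subunits, had 966, 812 and 893 CPM in ISO/PE hearts, 626, 650.1 and 656 CPM in ISO hearts and 545, 520.2 and 561 CPM in Ctr hearts. The groups did not overlap. Per length it was the member with the highest level in ISO/PE hearts, at 213 ± 18.5 RPKM, against 154 ± 3.81 RPKM in ISO hearts and 129.8 ± 4.95 RPKM in Ctr hearts (SD, n = 3 each). It passed both thresholds in ISO/PE vs. Ctr (adjusted p = 8.92e-05), and in ISO/PE vs. ISO it passed the p threshold alone (adjusted p = 0.00886).

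**Figure D2:**
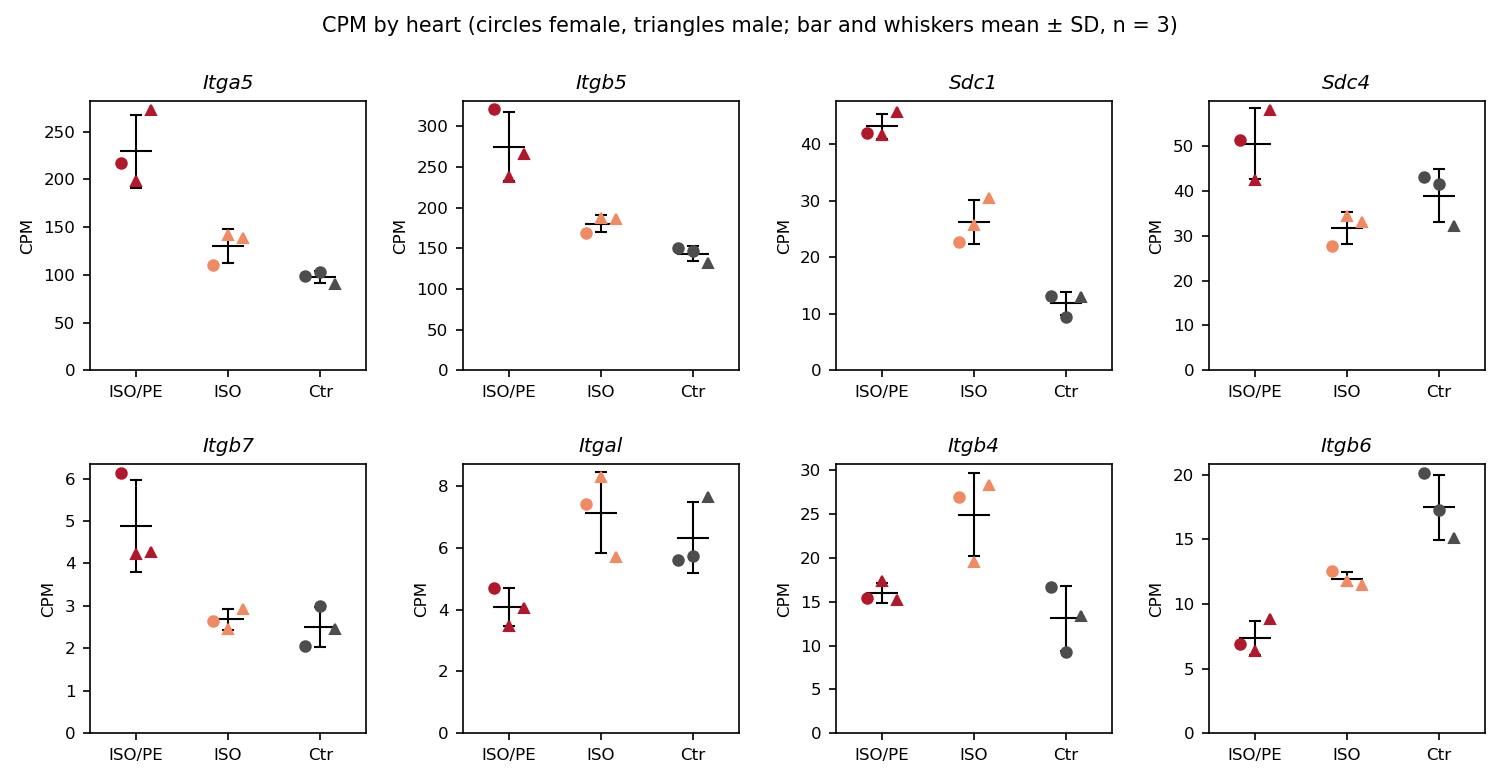
CPM (y axes, from 0) in each of the 9 hearts of the 8 members called in ISO/PE vs. ISO, with ISO/PE, ISO and Ctr from left to right, circles for female and triangles for male hearts, and bars for the mean ± SD of 3 hearts. Itga5, Itgb5, Sdc1, Sdc4 and Itgb7 lay higher in each ISO/PE heart than in each ISO heart, and Itgal, Itgb4 and Itgb6 lower.

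Among the 4 alpha subunits that bind collagen, 2 rose with both treatments. Itga11, the collagen receptor of fibroblasts, had 25.6, 13.8 and 18.7 CPM in ISO/PE hearts, 17.4, 13.4 and 15.2 CPM in ISO hearts and 8.42, 8.16 and 8.36 CPM in Ctr hearts. The treated groups lay apart from Ctr and overlapped each other. Its log2 fold change was 1.22 ± 0.21 in ISO/PE vs. Ctr (adjusted p = 0.00057), 0.88 ± 0.21 in ISO vs. Ctr (adjusted p = 0.00989) and 0.34 ± 0.19 in ISO/PE vs. ISO (adjusted p = 0.256). Activated fibroblast markers rose as well. They summed to 5020 to 6462 CPM in ISO/PE hearts, 1483 to 3106 CPM in ISO hearts and 354 to 412 CPM in Ctr hearts. Of the 9, 8 were called higher in ISO/PE vs. Ctr and 6 in ISO vs. Ctr. In ISO/PE vs. ISO, where Itga11 was not called, 7 were called higher and 0 lower, beside 3.64% and 2.81% of all genes. Over all genes, 16.0% were called higher and 10.1% lower in ISO/PE vs. Ctr, and 10.4% and 2.99% in ISO vs. Ctr. The 8 general fibroblast markers summed to 4072 to 4411 CPM in ISO/PE hearts, 4091 to 4978 CPM in ISO hearts and 4926 to 5714 CPM in Ctr hearts, with 3 called higher and 1 (Gsn) lower in ISO/PE vs. Ctr, and 5 higher and 1 (Gsn) lower in ISO vs. Ctr. The part of these cells in the Itga11 result was not tested.

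Itga2, a collagen receptor known from platelets and epithelia, had 5.62, 3.85 and 3.46 CPM in ISO/PE hearts, 4.85, 3.97 and 4.60 CPM in ISO hearts and 2.34, 1.41 and 2.65 CPM in Ctr hearts. It rose by 1.02 ± 0.27 on the log2 scale in ISO/PE vs. Ctr (adjusted p = 0.00916) and by 1.07 ± 0.27 in ISO vs. Ctr (adjusted p = 0.0142), and the second call was lost without the Ctr heart female2 (adjusted p = 0.0635). Both other members of this class, Itga1 and Itga10, were not called in any comparison. Of the exon bases of Itga10, 33.5% also lie in Gm42957. Itga1 was the collagen-binding alpha subunit with the highest level per length (8.42 ± 0.549 RPKM in ISO/PE hearts, 8.27 ± 2.07 RPKM in ISO hearts and 7.84 ± 1.18 RPKM in Ctr hearts), and it had 47.2, 49.4 and 53.7 CPM in ISO/PE hearts, 62.8, 38.8 and 46.0 CPM in ISO hearts and 51.3, 38.6 and 50.1 CPM in Ctr hearts. These ranges overlapped.

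The discoidin receptors differed from each other. Ddr1, typical of epithelial cells, had 93.4, 69.5 and 77.3 CPM in ISO/PE hearts, 59.3, 63.1 and 59.8 CPM in ISO hearts and 38.8, 48.0 and 40.6 CPM in Ctr hearts. The groups did not overlap. It was called higher in ISO/PE vs. Ctr (0.91 ± 0.12 on the log2 scale, adjusted p = 8.09e-05), and it passed the p threshold alone in ISO vs. Ctr (0.51 ± 0.12, adjusted p = 0.00784) and in ISO/PE vs. ISO (0.40 ± 0.11, adjusted p = 0.0378). Ddr2, the discoidin receptor of fibroblasts and other mesenchymal cells, was not called in any comparison. It had 54.7, 58.0 and 68.3 CPM in ISO/PE hearts, 72.9, 74.5 and 74.2 CPM in ISO hearts and 64.2, 52.2 and 53.5 CPM in Ctr hearts, so ISO hearts were highest, with a log2 fold change in ISO vs. Ctr of 0.38 ± 0.10 (adjusted p = 0.0187). Ddr1 made up 74.4% ± 4.11 of the summed RPKM of both receptors in ISO/PE hearts, 64.6% ± 0.598 in ISO hearts and 62.4% ± 4.93 in Ctr hearts (SD, n = 3 each).

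None of the 3 laminin-binding alpha subunits was called. Itga7, the main laminin receptor of muscle and the alpha subunit with the highest level per length in all 3 groups (61.4 ± 4.71 RPKM in ISO/PE hearts, 45.8 ± 5.58 RPKM in ISO hearts and 53.1 ± 1.58 RPKM in Ctr hearts), had 246, 226 and 263 CPM in ISO/PE hearts, 161, 205 and 182 CPM in ISO hearts and 209, 219 and 207 CPM in Ctr hearts. ISO/PE hearts lay above both other groups and ISO hearts below both. Its log2 fold change was 0.42 ± 0.10 in ISO/PE vs. ISO (adjusted p = 0.0196), under the fold threshold. In the other comparisons it was 0.21 ± 0.10 (ISO/PE vs. Ctr, adjusted p = 0.109) and -0.21 ± 0.10 (ISO vs. Ctr, adjusted p = 0.146). Itga6 had log2 fold changes of 0.12 in ISO vs. Ctr and -0.12 in ISO/PE vs. ISO and differed least in ISO/PE vs. Ctr (adjusted p = 0.985). Itga3 had -0.27 in ISO/PE vs. Ctr (adjusted p = 0.0423), -0.20 in ISO vs. Ctr and -0.07 in ISO/PE vs. ISO.

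Itgb4, which pairs with alpha6 as a laminin receptor of epithelia, Schwann cells and vessels, was the one member higher in ISO than in both other groups by the calls. It had 15.4, 17.3 and 15.2 CPM in ISO/PE hearts, 26.9, 19.5 and 28.3 CPM in ISO hearts and 16.7, 9.29 and 13.4 CPM in Ctr hearts. It rose in ISO vs. Ctr (0.93 ± 0.20 on the log2 scale, adjusted p = 0.00532) and was lower in ISO/PE vs. ISO (-0.64 ± 0.19, adjusted p = 0.0431). This second call was lost without any one of 6 hearts (the ISO hearts female2 and male2, each ISO/PE heart and the Ctr heart male1), with adjusted p of 0.0584 to 0.135. Between ISO/PE and Ctr hearts the log2 fold change was 0.29 ± 0.20 (adjusted p = 0.258).

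Itga4 and Itga9 bind the vascular adhesion protein VCAM1 as well as matrix proteins, and alpha4 is carried by lymphocytes and monocytes. Itga4 had 18.1, 15.4 and 14.3 CPM in ISO/PE hearts, 12.4, 14.4 and 13.3 CPM in ISO hearts and 6.83, 5.72 and 8.06 CPM in Ctr hearts. Each treated heart lay above each Ctr heart. It rose by 1.22 ± 0.15 on the log2 scale in ISO/PE vs. Ctr (adjusted p = 7.90e-05) and by 0.96 ± 0.16 in ISO vs. Ctr (adjusted p = 0.00121). Itga9 was not called, with 69.6, 80.4 and 73.0 CPM in ISO/PE hearts, 98.6, 76.5 and 84.7 CPM in ISO hearts and 78.7, 86.0 and 79.7 CPM in Ctr hearts, and the groups overlapped.

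The leukocyte integrins held the members with the greatest fold changes in ISO/PE vs. Ctr and ISO vs. Ctr. In ISO/PE vs. Ctr, 5 of 7 were called higher and 1 lower, beside 16.0% and 10.1% of all genes. In ISO vs. Ctr 3 were called higher, beside 10.4% of all genes. Itgb2, the beta2 chain shared by 4 leukocyte alpha subunits, had 68.9, 62.4 and 58.9 CPM in ISO/PE hearts, 28.2, 47.8 and 51.8 CPM in ISO hearts and 12.5, 10.3 and 15.2 CPM in Ctr hearts. It rose 5.01-fold in ISO/PE vs. Ctr (log2 fold change 2.32 ± 0.21, adjusted p = 1.06e-05) and 3.36-fold in ISO vs. Ctr (1.75 ± 0.21, adjusted p = 0.000236). The ISO/PE hearts also lay above the ISO hearts, with a log2 fold change of 0.57 ± 0.19 that missed both thresholds (adjusted p = 0.0662). That difference was past both thresholds by limma-voom (0.62, adjusted p = 0.0467), with sex as a covariate (0.62, adjusted p = 0.0405), without the ISO heart male2 (0.74, adjusted p = 0.0339) and with libraries scaled to cardiomyocyte markers, and without the ISO heart female2 it was 0.35 (adjusted p = 0.146).

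Itgam, the alphaM chain of complement receptor 3 on macrophages and neutrophils, followed the same order. It had 81.6, 71.9 and 70.7 CPM in ISO/PE hearts, 37.3, 59.9 and 63.6 CPM in ISO hearts and 13.6, 12.6 and 14.5 CPM in Ctr hearts. Its log2 fold change was 2.47 ± 0.18 in ISO/PE vs. Ctr (adjusted p = 4.02e-06), 1.98 ± 0.18 in ISO vs. Ctr (adjusted p = 4.84e-05) and 0.48 ± 0.16 in ISO/PE vs. ISO (adjusted p = 0.0674). Without the ISO heart male2 the last of these was 0.62 (adjusted p = 0.0318), past both thresholds. Without the ISO heart female2, which had the lowest value of its group (37.3 CPM), Itgam was not called in ISO/PE vs. ISO. Of its exon bases, 68.7% also lie in the annotated gene Gm49368, so reads of the pair cannot be told apart. Itgax, the alphaX chain of macrophages and dendritic cells, had 11.7, 7.03 and 6.76 CPM in ISO/PE hearts, 2.88, 5.83 and 6.19 CPM in ISO hearts and 0.748, 1.60 and 0.918 CPM in Ctr hearts. Its log2 fold change of 2.96 ± 0.39 in ISO/PE vs. Ctr (adjusted p = 0.000104) was the greatest of all members, and in ISO vs. Ctr it was 2.17 ± 0.41 (adjusted p = 0.00284). In each of these 3 genes the ISO heart female2 was the lowest of its group.

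The genes of alphaL, alphaM, alphaX and alphaD lie on chromosome 7 between positions 127296139 and 128205504 (GRCm38.p6), with Itgam and Itgax close together. The promoters of these 2 genes are shown because their genes rose most, with capitals for GAGGAA (PU.1 core) and TGANTCA (AP-1) on either strand. The windows lie at chr7:128062390-128062689 (Itgam, plus strand) and chr7:128129300-128129599 (Itgax, plus strand).
Itgam: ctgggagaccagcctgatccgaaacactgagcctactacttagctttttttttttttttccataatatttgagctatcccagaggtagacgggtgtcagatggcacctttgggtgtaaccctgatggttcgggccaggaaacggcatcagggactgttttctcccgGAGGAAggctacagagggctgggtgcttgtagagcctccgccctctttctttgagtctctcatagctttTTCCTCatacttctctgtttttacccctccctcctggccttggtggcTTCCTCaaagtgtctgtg
Itgax: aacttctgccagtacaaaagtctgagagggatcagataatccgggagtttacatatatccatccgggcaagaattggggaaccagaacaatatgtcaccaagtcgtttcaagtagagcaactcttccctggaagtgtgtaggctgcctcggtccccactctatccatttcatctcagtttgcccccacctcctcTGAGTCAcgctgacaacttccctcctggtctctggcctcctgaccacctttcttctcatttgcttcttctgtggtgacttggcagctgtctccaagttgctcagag
The Itgam window held 3 matches to GAGGAA, letters found in 28.3% of all windows, and the Itgax window held none of them and 1 match to TGANTCA.

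Itgal, the alphaL chain of LFA-1, which lymphocytes carry most, had 4.71, 3.48 and 4.04 CPM in ISO/PE hearts, 7.43, 8.28 and 5.71 CPM in ISO hearts and 5.61, 5.72 and 7.65 CPM in Ctr hearts. Each ISO/PE heart lay below each heart of the other groups. The log2 fold change was -0.63 ± 0.21 in ISO/PE vs. Ctr (adjusted p = 0.0269) and turned to 0.20 when libraries were scaled to cardiomyocyte markers. It was -0.80 ± 0.20 in ISO/PE vs. ISO (adjusted p = 0.024). Leaving out the Ctr heart male1 or the ISO/PE hearts male1 or male2 ended the first call (adjusted p 0.0547 to 0.114), and leaving out the ISO hearts female2 or male1 or the ISO/PE heart male1 ended the second (adjusted p 0.0658 to 0.0946). Itgad, a macrophage alpha subunit in mice, was not called, with 0.983 to 1.84 CPM in ISO/PE hearts, 1.01 to 2.06 CPM in ISO hearts and 1.84 to 2.53 CPM in Ctr hearts. These values rest on 12 to 27 counts per heart. Of the exon bases of Itgad, 19.7% also lie in other annotated genes, among them Cox6a2, so its reads cannot be told apart from theirs there.

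Itgae and Itgb7 encode the chains of the alphaE-beta7 receptor for E-cadherin on intraepithelial lymphocytes and some dendritic cells. Itgae was the scarcest, with 23, 20 and 10 counts in ISO/PE hearts, 12, 10 and 3 counts in ISO hearts and 4, 5 and 2 counts in Ctr hearts. It was called higher in ISO/PE vs. Ctr (1.79 ± 0.54 on the log2 scale, adjusted p = 0.0173), a call lost without the Ctr heart male1 or the ISO/PE hearts female2 or male1 (adjusted p 0.0512 to 0.0635). Itgb7 had 6.13, 4.23 and 4.26 CPM in ISO/PE hearts, 2.65, 2.45 and 2.94 CPM in ISO hearts and 2.06, 3.00 and 2.45 CPM in Ctr hearts. The ISO/PE hearts lay above both other groups, which overlapped each other. It was called higher in ISO/PE vs. Ctr (0.96 ± 0.23, adjusted p = 0.00489) and in ISO/PE vs. ISO (0.87 ± 0.22, adjusted p = 0.0253). The call in ISO/PE vs. ISO was lost without the heart female2 of either group or the ISO heart male1 (adjusted p 0.0857 to 0.103).

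Some lists of leukocyte markers rose beside these genes and others did not. Over all genes, 16.0% were called higher and 10.1% lower in ISO/PE vs. Ctr, and 10.4% and 2.99% in ISO vs. Ctr. The 6 pan-leukocyte markers summed to 365 to 524 CPM in ISO/PE hearts, 253 to 408 CPM in ISO hearts and 118 to 139 CPM in Ctr hearts, and all 6 were called higher in both comparisons with Ctr. The 10 macrophage and monocyte markers summed to 2170 to 2946 CPM in ISO/PE hearts, 1283 to 2131 CPM in ISO hearts and 622 to 779.9 CPM in Ctr hearts, with 10 called higher in ISO/PE vs. Ctr and 9 in ISO vs. Ctr. B cell markers went down, with sums of 2.87 to 4.31 CPM in ISO/PE hearts, 2.65 to 3.81 CPM in ISO hearts and 8.63 to 12.6 CPM in Ctr hearts, and all 5 were called lower in both comparisons with Ctr. Of 5 neutrophil markers, 2 were called higher and 0 lower in each comparison with Ctr. Dendritic cell markers did not rise in sum (mean ± SD, n = 3 each). They had 16.2 ± 0.987 CPM in ISO/PE hearts, 17.8 ± 0.588 CPM in ISO hearts and 19.9 ± 2.90 CPM in Ctr hearts. Of the 5 dendritic cell markers tested, 2 were called higher and 1 lower in ISO/PE vs. Ctr. In ISO vs. Ctr 0 of them were called. Of the 9 T and NK cell markers, 6 (Cd3d, Cd3e, Cd3g, Cd8a, Klrb1c and Ncr1) were not analysed here. The 1 that was tested, Cd4, which some macrophages also carry, was called higher in ISO/PE vs. Ctr (0.74 ± 0.24 on the log2 scale, adjusted p = 0.0252) and in ISO vs. Ctr (0.94 ± 0.24, adjusted p = 0.0143). The part of these cells in the integrin results was not tested.

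Itgam amounted to 2.77%, 2.89% and 3.26% of the summed CPM of the macrophage and monocyte markers in ISO/PE hearts, 2.91%, 2.93% and 2.99% in ISO hearts and 1.88%, 2.02% and 1.86% in Ctr hearts. The treated groups overlapped each other and lay apart from Ctr. Itgb2 gave 2.34% to 2.71% in ISO/PE hearts, 2.20% to 2.43% in ISO hearts and 1.66% to 1.95% in Ctr hearts. Itgax gave 0.283% to 0.397% in ISO/PE hearts, 0.225% to 0.290% in ISO hearts and 0.104% to 0.256% in Ctr hearts, and its ISO and Ctr hearts overlapped. Itgal gave 0.140% to 0.186% in ISO/PE hearts, 0.268% to 0.579% in ISO hearts and 0.779% to 0.981% in Ctr hearts. The sums of these markers themselves were lowest in Ctr hearts and highest in ISO/PE hearts, the reverse order of this ratio. In ISO vs. Ctr, Itgal itself was not called (log2 fold change 0.18), so there the lower ratio came with the rise of the markers.

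**Figure D3:**
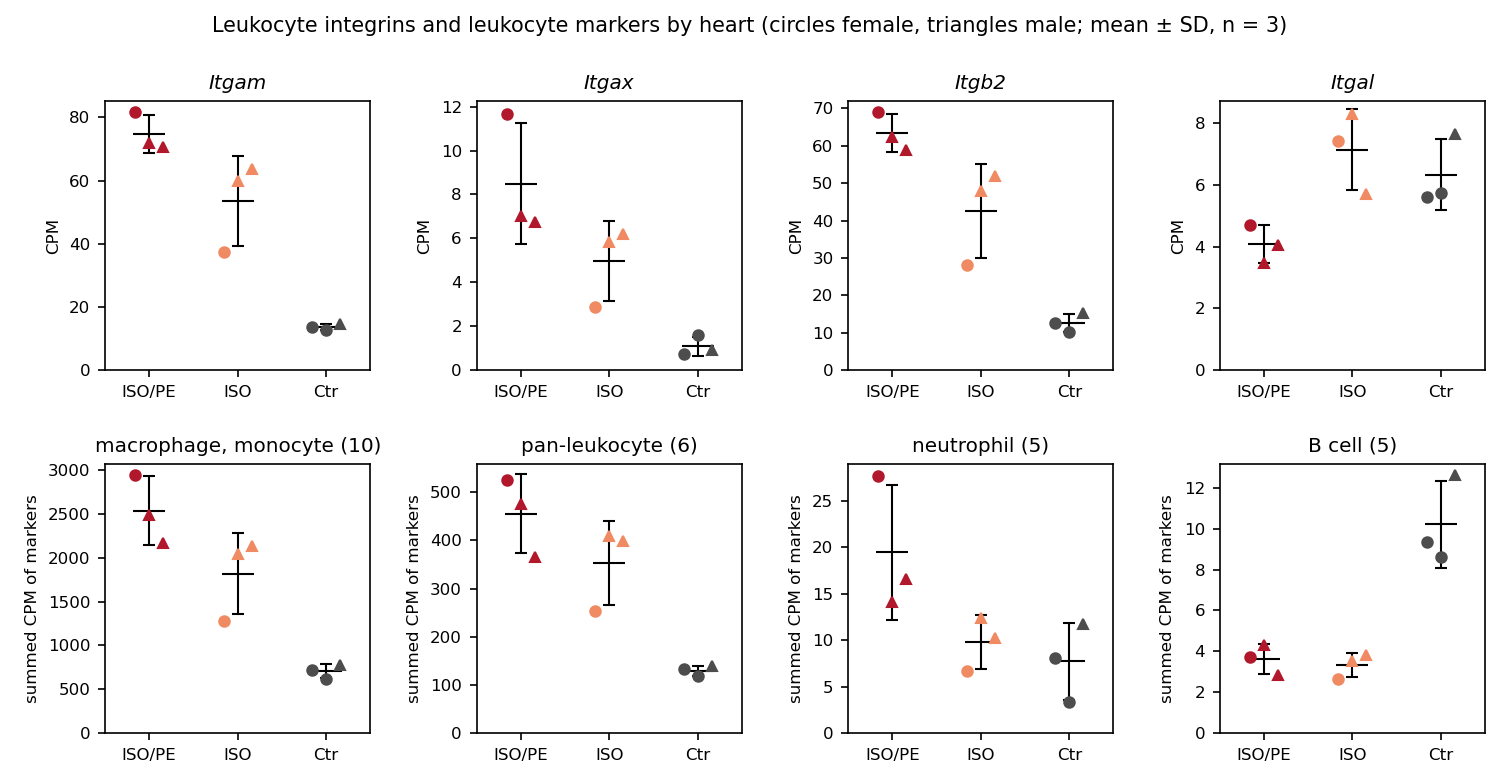
Upper row, CPM of Itgam, Itgax, Itgb2 and Itgal in each heart, and lower row, summed CPM of 10 macrophage and monocyte, 6 pan-leukocyte, 5 neutrophil and 5 B cell markers (y axes from 0, groups ISO/PE, ISO and Ctr from left to right, circles female, triangles male, bars mean ± SD of 3 hearts). Itgam, Itgb2 and the macrophage markers were highest in ISO/PE hearts and lowest in Ctr hearts, whereas Itgal was lowest in ISO/PE hearts and B cell markers were highest in Ctr hearts.

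Of the syndecans, Sdc1 was the one member called higher in all 3 comparisons. Sdc1, a syndecan of epithelia, plasma cells and injured tissue, had 42.0, 41.6 and 45.7 CPM in ISO/PE hearts, 22.7, 25.6 and 30.5 CPM in ISO hearts and 13.1, 9.48 and 12.9 CPM in Ctr hearts. The groups did not overlap. It rose 3.64-fold in ISO/PE vs. Ctr (log2 fold change 1.86 ± 0.14, adjusted p = 4.47e-06), 2.22-fold in ISO vs. Ctr (1.15 ± 0.14, adjusted p = 0.000273) and 1.64-fold in ISO/PE vs. ISO (0.71 ± 0.13, adjusted p = 0.00698). These calls were kept under each of the 21 alternatives, including each heart left out. B cell markers, given above, fell in both comparisons with Ctr.

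Sdc3, known mainly from neurons, rose with both treatments to a like level. It had 366, 419.9 and 292 CPM in ISO/PE hearts, 325, 359 and 370.3 CPM in ISO hearts and 174, 169.8 and 193 CPM in Ctr hearts. The treated groups overlapped and lay above Ctr. The log2 fold change was 1.01 ± 0.13 in ISO/PE vs. Ctr (adjusted p = 7.59e-05) and 0.97 ± 0.13 in ISO vs. Ctr (adjusted p = 0.000333). Between the treated groups it was 0.03 ± 0.12 (ISO/PE vs. ISO, adjusted p = 0.891). Of 5 Schwann cell and neuron markers tested, 1 (Uchl1) was called, and it was higher in all 3 comparisons. Uchl1 rose by 1.96 ± 0.15 on the log2 scale in ISO/PE vs. Ctr, 1.16 ± 0.16 in ISO vs. Ctr and 0.80 ± 0.14 in ISO/PE vs. ISO. The shares of all genes called higher were 16.0%, 10.4% and 3.64% in the same order.

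Sdc4, the syndecan of focal adhesions, gave a pattern unlike that of Sdc3. It had 51.2, 42.3 and 58.0 CPM in ISO/PE hearts, 27.7, 34.3 and 33.1 CPM in ISO hearts and 43.1, 41.5 and 32.2 CPM in Ctr hearts. ISO/PE hearts lay above ISO hearts and overlapped with Ctr hearts. It was called higher in ISO/PE vs. ISO (0.67 ± 0.14 on the log2 scale, adjusted p = 0.0115), a call lost without the ISO heart female2 or the ISO/PE heart male2 (log2 fold change 0.56 to 0.58, under the fold threshold). It was 0.37 ± 0.14 in ISO/PE vs. Ctr (adjusted p = 0.0459), and in ISO vs. Ctr -0.30 ± 0.14 (adjusted p = 0.153). Sdc2, the syndecan of mesenchymal cells, was not called in any comparison, with 126 to 141 CPM in ISO/PE hearts, 110.5 to 121 CPM in ISO hearts and 103 to 107 CPM in Ctr hearts, and a log2 fold change of 0.32 ± 0.08 in ISO/PE vs. Ctr (adjusted p = 0.00537).

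Of the 5 glypicans analysed, 2 were called higher in ISO/PE vs. Ctr and 1 in ISO vs. Ctr, beside 16.0% and 10.4% of all genes. In ISO/PE vs. ISO edgeR called 0, beside 3.64% of all genes higher and 2.81% lower. Gpc1 and Gpc6 had an unadjusted p under 0.05 there. Gpc6 had 65.6, 60.9 and 47.7 CPM in ISO/PE hearts, 73.5, 64.2 and 70.5 CPM in ISO hearts and 38.4, 34.3 and 38.0 CPM in Ctr hearts. Each treated heart lay above each Ctr heart. It rose in ISO vs. Ctr (0.91 ± 0.12 on the log2 scale, adjusted p = 0.000313) and in ISO/PE vs. Ctr (0.65 ± 0.12, adjusted p = 0.000808), and without the heart female2 of the ISO/PE or the Ctr group the log2 fold change in ISO/PE vs. Ctr was 0.56 to 0.59, under the fold threshold. Gpc4 had 32.1, 29.6 and 29.0 CPM in ISO/PE hearts, 18.6, 26.8 and 29.4 CPM in ISO hearts and 22.7, 19.2 and 17.7 CPM in Ctr hearts. Its call in ISO/PE vs. Ctr (0.60 ± 0.16, adjusted p = 0.00835) lay at the fold threshold and was lost without the ISO/PE heart female2, the Ctr hearts female2 or male1 or the ISO heart male1 (log2 fold change 0.53 to 0.59).

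Gpc1, the glypican of muscle and nerve, was not called, although it was the glypican with the highest level per length in every group (129.9 ± 4.27 RPKM in ISO/PE hearts, 161 ± 16.2 RPKM in ISO hearts and 160.4 ± 5.43 RPKM in Ctr hearts). It had 470.5, 450.4 and 481 CPM in ISO/PE hearts, 628, 592 and 514 CPM in ISO hearts and 576, 597 and 558 CPM in Ctr hearts. The ISO/PE hearts lay below both other groups. Its log2 fold change was -0.30 ± 0.09 in ISO/PE vs. Ctr (adjusted p = 0.0199) and -0.31 ± 0.09 in ISO/PE vs. ISO (adjusted p = 0.0501), and 18.9% of its exon bases lie in Ankmy1 as well. Gpc2 and Gpc3 were not called, and for Gpc2, at 0.655 to 1.5 CPM over the 9 hearts, 55.6% of the exon bases lie in Gm43720.

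These changes altered the make-up of each family, taken as the share of its summed RPKM. The alpha and beta families here include the leukocyte integrins, so their rise lowers the shares of the other subunits. Itgb2 alone had 22.2 ± 1.79 RPKM in ISO/PE hearts, 14.9 ± 4.43 RPKM in ISO hearts and 4.44 ± 0.854 RPKM in Ctr hearts. Among the alpha subunits, Itga5 made up 26.5% ± 3.00 in ISO/PE hearts, 19.2% ± 1.70 in ISO hearts and 16.0% ± 1.15 in Ctr hearts (SD, n = 3 each), and Itga7 made up 31.2% ± 0.555 in ISO/PE hearts, 29.6% ± 2.46 in ISO hearts and 38.2% ± 1.72 in Ctr hearts. Among the beta subunits, Itgb1 had 65.0% ± 1.13 in ISO/PE hearts, 65.9% ± 1.62 in ISO hearts and 69.7% ± 1.53 in Ctr hearts, and Itgb5 had 25.5% ± 1.38, 23.6% ± 0.402 and 23.6% ± 1.79 in the same groups. The summed level of the beta subunits differed between the groups (329 ± 33.0 RPKM in ISO/PE hearts, 234 ± 11.4 RPKM in ISO hearts and 186 ± 5.43 RPKM in Ctr hearts). Of the syndecans, Sdc1 made up 9.68% ± 1.19 in ISO/PE hearts, 6.76% ± 0.707 in ISO hearts and 4.43% ± 0.700 in Ctr hearts. Sdc3 made up 49.0% ± 5.92 in ISO/PE hearts, 55.6% ± 1.28 in ISO hearts and 41.1% ± 2.34 in Ctr hearts. Over all heparan sulfate carriers, Gpc1 took 43.0% ± 2.38 in ISO/PE hearts, 51.1% ± 3.83 in ISO hearts and 60.3% ± 1.16 in Ctr hearts. These shares were not tested.

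**Figure D4:**
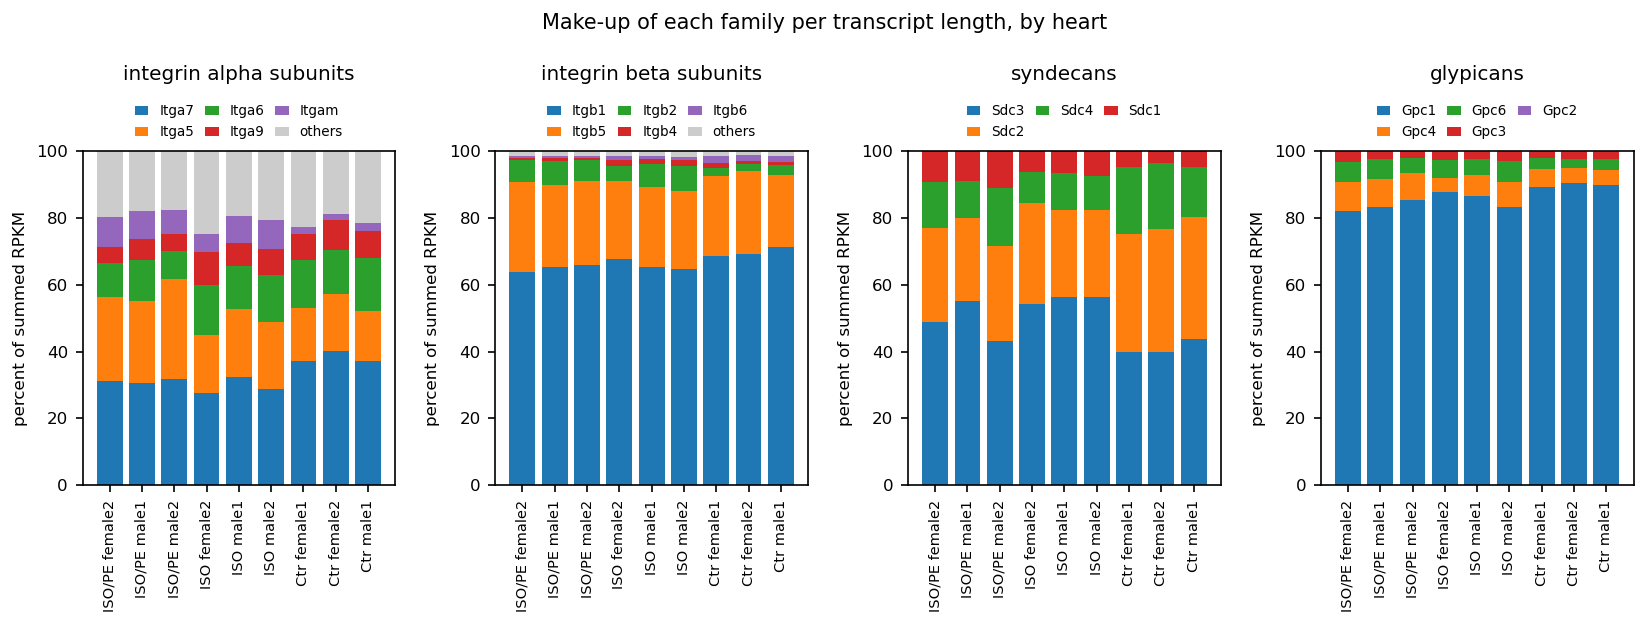
Share of each gene in the summed RPKM of its family (y axes, percent) in each of the 9 hearts (x axes, ISO/PE, ISO and Ctr from left to right), for integrin alpha subunits, integrin beta subunits, syndecans and glypicans, with genes past the first 5 of a family in grey. Leukocyte integrins are included in the alpha and beta families. Itga5 and Sdc1 took their largest mean shares in ISO/PE hearts (26.5% and 9.68%), and Gpc1 made up 83.5% of the glypicans in ISO/PE hearts, 86.0% in ISO hearts and 89.9% in Ctr hearts.

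A list of ligands of these receptors was counted in the same way. This list and the lists below were chosen with earlier results of these data known. Of 26 ligand genes tested, 17 rose and 1 (Vtn) fell in ISO/PE vs. Ctr, with a median log2 fold change of 0.78, beside 16.0% of all genes higher and 10.1% lower. In ISO vs. Ctr, 13 rose and 0 fell (median 0.59), beside 10.4% and 2.99% of all genes. In ISO/PE vs. ISO 10 rose and 1 (Npnt) fell (median 0.23), beside 3.64% and 2.81% of all genes. Without the ISO/PE heart female2, 6 rose and 0 fell in ISO/PE vs. ISO, and without the ISO heart female2, 9 rose and 0 fell. Vtn and Npnt are named after their values were seen. Tnc, the gene of tenascin-C, had 1280, 865 and 1131 CPM in ISO/PE hearts, 37.1, 225 and 217 CPM in ISO hearts and 8.05, 5.72 and 4.08 CPM in Ctr hearts. Spp1, the gene of osteopontin, had 516, 309.5 and 463 CPM in ISO/PE hearts, 7.73, 107 and 81.7 CPM in ISO hearts and 1.96, 1.13 and 1.53 CPM in Ctr hearts. The ISO heart female2 was far below the other ISO hearts in both. In ISO/PE vs. ISO, log2 fold changes were 2.77 ± 0.50 for Tnc, 2.72 ± 0.61 for Spp1, 1.72 ± 0.18 for Thbs1 (thrombospondin-1), 1.24 ± 0.24 for Col1a1 (a chain of collagen I) and 1.22 ± 0.27 for Postn (periostin). Without the ISO heart female2 they were 2.30 ± 0.21 for Tnc, 2.19 ± 0.21 for Spp1, 1.66 ± 0.21 for Thbs1, 0.97 ± 0.17 for Col1a1 and 0.91 ± 0.15 for Postn, and each was still called. Without the ISO/PE heart female2 the calls of Spp1 (adjusted p = 0.0509) and Postn (adjusted p = 0.0532) were lost.

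Adaptors and kinases that bind the integrin tail were also counted. Of 32 tested, 9 rose and 2 (Lims2 and Tns2) fell in ISO/PE vs. Ctr (median log2 fold change 0.23), 5 rose and 0 fell in ISO vs. Ctr (median 0.15), and 0 rose and 1 (Lims2) fell in ISO/PE vs. ISO (median 0.08). Beside these counts, the shares of all genes called higher and lower were 16.0% and 10.1% in ISO/PE vs. Ctr, 10.4% and 2.99% in ISO vs. Ctr, and 3.64% and 2.81% in ISO/PE vs. ISO, so the lower calls and the calls in ISO/PE vs. ISO were below or near those over all genes. Tns2 is named after its values were seen. Lims2, a partner of integrin-linked kinase, had 73.6, 120.3 and 85.0 CPM in ISO/PE hearts, 159, 129 and 151 CPM in ISO hearts and 173, 197 and 202 CPM in Ctr hearts, and the groups did not overlap. Its call in ISO/PE vs. ISO was lost without the heart female2 of either group or the ISO/PE heart male2 (adjusted p 0.0501 to 0.0759). Of the genes that rose in ISO/PE vs. Ctr, Parvg (2.14 ± 0.34 on the log2 scale), Fermt3 (1.34 ± 0.20) and Apbb1ip (1.30 ± 0.15) are known from blood cells, and Ptk2b (1.52 ± 0.17) is a kinase akin to focal adhesion kinase.

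Genes that build or trim heparan sulfate were tested in 24 of 30 cases. In ISO/PE vs. Ctr 7 rose and 0 fell (median log2 fold change 0.21), in ISO vs. Ctr 4 rose and 0 fell (median 0.23), and in ISO/PE vs. ISO 1 rose and 1 fell (median close to 0), which is near the 3.64% higher and 2.81% lower over all genes. The shares over all genes were 16.0% higher and 10.1% lower in ISO/PE vs. Ctr, and 10.4% and 2.99% in ISO vs. Ctr. Hs6st2, a sulfotransferase, had 12.9, 7.18 and 6.40 CPM in ISO/PE hearts, 2.43, 2.79 and 2.78 CPM in ISO hearts and 2.62, 1.41 and 0.918 CPM in Ctr hearts, and rose in ISO/PE vs. ISO (1.73 ± 0.33 on the log2 scale). Hs3st1, another sulfotransferase, was lower in ISO/PE vs. ISO (-0.74 ± 0.16), a call lost without the heart female2 of either group (adjusted p 0.0518 to 0.0539). Sulf1, which removes sulfate groups from the finished chains outside the cell, rose with both treatments, by 2.08 ± 0.12 in ISO/PE vs. Ctr and 1.77 ± 0.12 in ISO vs. Ctr. Hpse, which cuts the chains, and Xylt1, which starts them, also rose in ISO/PE vs. Ctr (1.52 ± 0.26 and 1.29 ± 0.26).

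By the calls in the 3 comparisons, the members fall into a few patterns. Higher in both comparisons with Ctr and not called between the treated groups were 9 members (Itga2, Itga4, Itga11, Itgam, Itgax, Itgb2, Itgb8, Sdc3 and Gpc6). Higher in ISO/PE vs. Ctr and in ISO/PE vs. ISO, but not called in ISO vs. Ctr, were 3 members (Itga5, Itgb5 and Itgb7), and 6 were called higher in ISO/PE vs. Ctr alone (Itgae, Itgav, Itgb1, Itgb3, Gpc4 and Ddr1). Itgal and Itgb6 were lower in ISO/PE hearts than in both other groups. No call was made in any comparison for 13 members. Sex was not balanced between the groups, and in tests of an interaction of sex and treatment 0 of 37 members passed, with the lowest adjusted p at 0.135 for Itgam in ISO/PE vs. ISO (edgeR), 7 members at an unadjusted p under 0.05 there and 0 members by limma-voom. Of all 14426 genes, 11 passed in ISO/PE vs. ISO and 10.1% had an unadjusted p under 0.05, and 0 passed in the treated groups vs. Ctr, where 2 members and 3.95% of all genes had an unadjusted p under 0.05. With 1 female in each treated group, these tests had little to draw on.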

How the data were processed

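Ventricular poly(A) RNA of 9 mouse hearts was analysed. The deposited values are raw counts per RefSeq transcript. The authors aligned reads to the mm10 genome with STAR and counted exons on both strands, with analyzeRepeats.pl in the study's methods and featureCounts in the submitters' processing notes. Their versions are not given in the sources consulted. Counting without strand means that reads of overlapping genes cannot be told apart. The deposited log2 fold changes, p values, normalized signal and RPKM values are the authors' own, from DESeq2 and edgeR, and were not used. Of the deposited columns, the counts and transcript lengths were used.

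The tables, 1 of ISO/PE and ISO hearts and 1 of ISO and Ctr hearts, were joined on 29889 shared transcripts, with equal counts for the 3 ISO hearts in both. Another 544 and 110 transcripts in 1 table alone were left out, and transcripts with a sum under 21 over 6 hearts are not in a table. For each gene the transcript with most counts was kept. edgeR 4.0.16 in R 4.3.3 (filterByExpr with minimum count 10 and minimum total count 15, TMM, glmQLFit and glmQLFTest, 2-sided) was fitted once over the 9 hearts without covariates. RPKM was computed here from the counts, the TMM library sizes and the lengths. Standard errors were derived from each log2 fold change and its F statistic. The fit was tested on simulated data. Each p-value sets a group difference against the spread between these hearts, which was estimated for all groups together. All members could be named, those called and the highest per length of each role with every heart's value, and up to 5 genes per pathway list by the size of their change. Alternatives used DESeq2 1.42.0, limma 3.58.1, other scalings, filters, transcripts and covariates, and each heart left out. Motifs were searched in the RefSeq promoter windows of GRCm38.p6. The members, lists and motifs were chosen with earlier results of these data known.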

Additional observations from a re-analysis of the deposited data

How the results depend on the processing

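Of 41 calls of a member in a comparison, 24 were kept under each of 21 alternatives (14 of 22 in ISO/PE vs. Ctr, 8 of 11 in ISO vs. Ctr and 2 of 8 in ISO/PE vs. ISO, namely Itga5 and Sdc1). Scaling to cardiomyocyte markers changed the counts most, with 29 members higher and 0 lower in ISO/PE vs. Ctr, 18 higher in ISO vs. Ctr, and 18 higher and 0 lower in ISO/PE vs. ISO, beside 65.3% of all genes higher and 1.25% lower in ISO/PE vs. Ctr, 20.0% and 0.936% in ISO vs. Ctr, and 31.5% and 0.652% in ISO/PE vs. ISO. This scaling moved all genes alike, by 0.81 at the median in ISO/PE vs. Ctr, so that 9 of the 11 members below 0 there turned above 0, among them Itga6 (0.80), Itga8 (0.73) and Itga9 (0.67), which were then called, and Itgal (0.20), whose lower call was lost. Scaling by total counts left 1 member lower in ISO/PE vs. Ctr, beside 7.27% of all genes. Without the fold threshold, 5 members were lower in ISO/PE vs. Ctr, 1 lower in ISO vs. Ctr and 9 higher in ISO/PE vs. ISO. The shares of all genes were then 22.7%, 9.60% and 7.46% in the same order. DESeq2 called 1 member lower in ISO vs. Ctr, beside 3.06% of all genes. When each heart was left out in turn, 14 to 19 members were higher and 1 to 3 lower in ISO/PE vs. Ctr. Of all genes, 14.4% to 16.5% were then higher and 8.69% to 10.8% lower. In ISO vs. Ctr, 9 to 11 members were higher and 0 to 1 lower, beside 8.14% to 11.1% and 2.05% to 3.55% of all genes. In ISO/PE vs. ISO, 2 to 7 were higher and 0 to 3 lower, beside 1.92% to 4.49% and 1.38% to 3.76%. The cause of these changes was not tested. Itgae and Itgb8 had 2 to 23 counts per heart.

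The hearts share replicate numbers, but same-numbered ISO/PE and ISO hearts did not deviate together from their group means (r = 0.012, -0.0528 and -0.117), and same-numbered hearts of which 1 was Ctr gave r of 0.0372 and 0.168 with ISO/PE and 0.182 and 0.00263 with ISO, so the numbers were not taken to pair them. With a replicate block, 1 member was lower in ISO/PE vs. Ctr, 8 were higher in ISO vs. Ctr, and 3 were higher and 1 lower in ISO/PE vs. ISO. Of all genes, 8.73% were then lower in ISO/PE vs. Ctr, 7.48% higher in ISO vs. Ctr, and 2.57% higher and 1.91% lower in ISO/PE vs. ISO.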
